A study of Mus musculus with 6 samples.

Results

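The genes described are 10 mouse genes of the lipid droplet, chosen by function from 23886 genes in the deposited tables. They are the perilipins Plin2, Plin3 and Plin5, the lipases and lipase cofactors Pnpla2, Abhd5, G0s2, Lipe and Mgll, and the acyltransferases Dgat1 and Dgat2, which complete triglyceride synthesis. Symbols were matched to Ensembl identifiers, and 9 of the 10 were analysed; Plin5, the perilipin of oxidative tissues, was not analysed here. Of the 9, 8 passed a filter on low values (at least 1 FPKM in at least 3 of the 6 libraries) and entered the comparison; Mgll did not. FPKM, read fragments relative to the length of a gene and to sequencing depth, is a level per gene length. Genes can be set side by side on it only as far as that length holds. The length is taken as that of all annotated exons, and the transcripts expressed may be shorter, which was not tested. The members were listed with results of the same comparison known, and Plin2 heads the list. Their differences between the groups, p-values included, are therefore given as a description of where each gene stood in the fit across all genes, and nothing is supported with them.

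AML12 is a hepatocyte line established from the liver of a mouse carrying a TGF-alpha transgene. Poly(A) RNA was sequenced from 3 libraries of untreated AML12 cells (Control 2, 3 and 4) and 3 libraries of AML12 cells exposed to a static magnetic field, labelled SMF (SMF 1, 2 and 3). The labels used here state neither the strength of the field nor the length of the exposure. Nothing in the labels says that the libraries came from separate cultures, so p-values measure only the spread between these libraries, which may be technical.

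A lipid droplet is a store of triglyceride and sterol ester under a phospholipid monolayer, and in hepatocytes it is the form in which excess fatty acid is held. Perilipins coat that surface and limit the access of lipases. Lipolysis starts with adipose triglyceride lipase (Pnpla2), which Abhd5 activates and G0s2 inhibits, and goes on through hormone-sensitive lipase (Lipe) and monoacylglycerol lipase (Mgll), while Dgat1 and Dgat2 refill the droplet. Plin2 protein is the common droplet coat of hepatocytes and is degraded when it is not bound to a droplet, so its transcript and its protein need not move together.

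The FPKM rest on 15514530 (SMF 1) to 18200516 (Control 3) reads per library. Of the hepatocyte markers, Hnf4a was at 87.0 to 95.5 FPKM, Trf at 63.8 to 75.0 and Alb at 26.3 to 34.1, while Apoa2 was listed at 0 in every library and the urea cycle genes Cps1 and Ass1 reached at most 0.010 and 0.023. The cholangiocyte keratin Krt19 stood at 1024 to 1163 FPKM. Adipocyte markers were below 1 FPKM, with Plin1 at 0 to 0.012, Fabp4 at 0 to 0.012 and Adipoq at 0 to 0.043 FPKM. The highest was Cidec, at 0.38 to 0.90 FPKM. The summed level of the 6 adipocyte markers analysed was 0.47 to 0.81 in controls versus 0.47 to 0.94 in SMF libraries, most of it Cidec. Summed leukocyte markers were 177.7 to 196.0 in controls versus 202.2 to 218.5 in SMF libraries. Nearly all of that sum was Cd14 (173.4 to 192.6 and 198.0 to 214.2 FPKM). Of the other leukocyte markers, Cd68 was at 2.05 to 3.08 FPKM, Csf1r at 0.93 to 1.43 and Lyz2 at 0.20 to 0.75. The leukocyte antigen Ptprc stayed at 0 to 0.016. Of the 5 leukocyte markers analysed, 3 passed the filter.

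The order of the members by FPKM was the same in 6 of 6 libraries: Plin2, G0s2, Plin3, Pnpla2, Dgat1, Dgat2, Abhd5, Lipe and Mgll. No pair of neighbours in that order overlapped within either group, and the closest pairs were G0s2 over Plin3, at 1.11 to 1.27 times in controls, and Plin3 over Pnpla2, at 1.11 to 1.19 times. The spread over libraries does not measure an error in gene length, which would be the same in every library, so the order of close pairs is uncertain. Plin2 was the most abundant by far, at 2.31 to 2.80 times the FPKM of G0s2 in controls. By its mean control level it was number 356 of the 11114 genes tested, above 96.8% of them. G0s2 stood above 89.4%, Plin3 above 86.9%, Pnpla2 above 84.6%, Dgat1 above 73.7%, Dgat2 above 52.1%, Abhd5 above 34.6% and Lipe above 17.9%. Per length, both analysed perilipins stood above each lipase and each acyltransferase in every library.

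**Figure D1:**
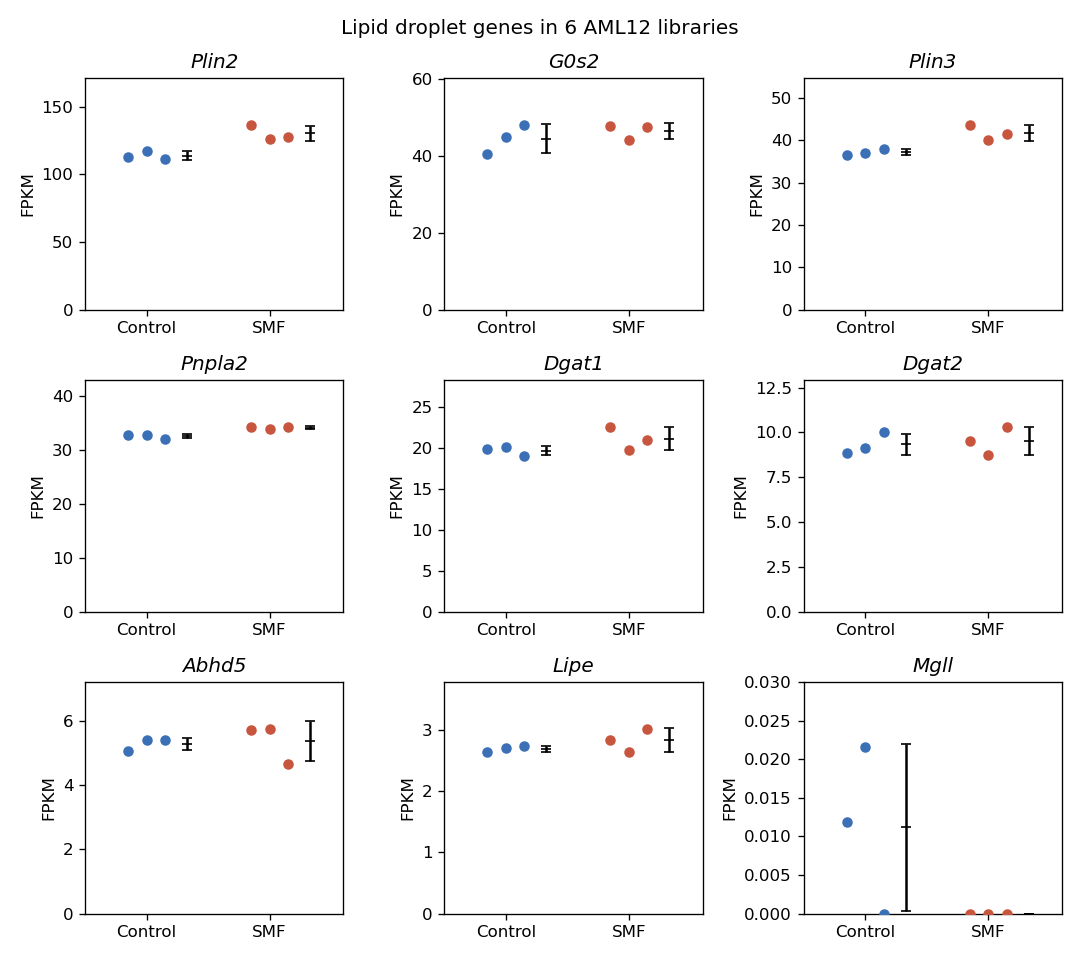
FPKM (y axis, from 0, a scale of its own for each gene) of the 9 analysed lipid droplet genes in 3 Control (blue) and 3 SMF (red) libraries, drawn from left to right as Control 2, 3, 4 and SMF 1, 2, 3. The black bar is the mean with the SD over 3 libraries. The groups are apart for Plin2, Plin3 and Pnpla2 and share values for the other genes, and Mgll is near 0 throughout.

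Both analysed perilipins were higher in the SMF libraries, by about the same proportion. Plin2 (ENSMUSG00000028494) was at 112.9, 117.4 and 111.3 FPKM in Control 2, 3 and 4 and at 136.8, 126.3 and 127.8 FPKM in SMF 1, 2 and 3. All 3 SMF libraries lay above all 3 controls, with SMF 1 the highest of the 6. The means were 113.9 ± 3.17 and 130.3 ± 5.66 FPKM (SD, n = 3), a ratio of 1.14, from 6581 to 8066 reads per library. The linear model of limma draws the variance of each gene towards that of genes of similar level. In that fit the log2 fold of Plin2 on log2(FPKM + 1) was 0.19 (SE 0.042, limma adjusted p = 0.1475 over all genes), short of the threshold of 0.05.

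Plin3 (ENSMUSG00000024197), a perilipin found on small, young droplets and in the cytosol, was at 36.5, 37.0 and 37.9 FPKM in Control 2, 3 and 4 and at 43.7, 40.0 and 41.6 FPKM in SMF 1, 2 and 3. Again no SMF library reached down to a control, and SMF 1 was the highest. The means were 37.2 ± 0.73 and 41.8 ± 1.84 FPKM, a ratio of 1.13 (log2 fold 0.16, SE 0.043, limma adjusted p = 0.1642). The ratio of Plin2 to Plin3 within a library was 3.07 ± 0.12 in controls versus 3.12 ± 0.041 in SMF libraries, with overlapping groups. SMF 1, where both genes were highest, also had the lowest library total; the part of depth in these values was not tested.

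The call for the perilipins depended on the test. By limma 0 of the 8 members passed, as did 0 of the 11114 genes (0.00%), with 2 members, Plin2 and Plin3, at an unadjusted p under 0.05, where 18.0% of all genes tested were. By limma-voom, which weights the reads recovered from the FPKM by their precision, 2 of the 8 passed, against 4.59% of all genes (2.18% with SMF higher). These were Plin2 (log2 fold of reads 0.19, SE 0.040, adjusted p = 0.009386) and Plin3 (0.17, SE 0.048, adjusted p = 0.04311). Leaving out 1 library moved the number of genes called by limma-voom from 510 to between 8 (0.0720%, without Control 4) and 1465 (13.2%, without SMF 2). The limma-voom call of Plin2 was lost without Control 4 (log2 fold 0.18, adjusted p = 0.1175) or SMF 1 (0.16, adjusted p = 0.07744), where 59 genes (0.531%) were called. That of Plin3 was kept without SMF 2 (log2 fold 0.20, adjusted p = 0.007652) and lost without any other library, with log2 folds of 0.14 to 0.18 and the highest adjusted p, 0.2037, without SMF 1. Reads were also adjusted, library by library, for their dependence on the GC content and length of genes. By limma-voom after this adjustment 1 of 8 members passed, against 0.905% of all genes: the adjusted p was 0.02491 for Plin2 and 0.08545 for Plin3.

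The stretches just before the start sites of both perilipin genes are shown because these genes had the largest differences of the 8 members. They are the 250 bases before the RefSeq start (build GRCm38.p6, not the GRCm39 of the reads), 5′ to 3′ on the gene's strand, at chr4:86670060-86670309 (minus strand) for Plin2 and chr17:56290512-56290761 (minus strand) for Plin3. Capitals mark AGGTCA, the core motif of nuclear receptors, GGGCGG, the GC box, and CCAAT, each searched on both strands.

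Plin2: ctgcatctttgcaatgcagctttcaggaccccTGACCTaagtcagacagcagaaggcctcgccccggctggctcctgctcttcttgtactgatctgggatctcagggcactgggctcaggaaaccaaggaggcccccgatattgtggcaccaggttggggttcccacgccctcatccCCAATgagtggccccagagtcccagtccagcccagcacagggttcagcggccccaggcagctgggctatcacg

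Plin3: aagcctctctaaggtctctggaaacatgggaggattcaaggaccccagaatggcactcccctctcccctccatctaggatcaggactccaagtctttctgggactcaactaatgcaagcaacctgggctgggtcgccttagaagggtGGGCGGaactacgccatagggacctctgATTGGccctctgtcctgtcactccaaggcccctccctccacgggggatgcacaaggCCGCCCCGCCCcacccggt

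Plin2 held AGGTCA with its first base 218 bases before the start, on the opposite strand, and CCAAT at 73 bases. Plin3 held CCAAT at 75 bases on the opposite strand, GGGCGG at 103, 19 and 14 bases, the last pair overlapping by a base, and no AGGTCA. Among all 32851 promoter windows of this length in the table, 14.02% held AGGTCA, 33.85% CCAAT and 32.74% GGGCGG. The motif of PPAR and RXR dimers, AGGTCANAGGTCA, which contains AGGTCA, was in no member's window and in 0.03% of all windows. The E-box CACGTG was in the windows of Lipe and Mgll and in 6.02% of all. Of the 10 members 8 had entries, 11 windows in all, with Plin5, Abhd5 and Plin2 holding AGGTCA and 7 genes holding GGGCGG in at least 1 window. These counts are per gene, and Plin5, Lipe and Mgll had more than 1 window each. The shares of all windows are per window, so the counts and the shares are unlike measures. All 11 windows were richer in G and C (58.0% to 74.8%) than the median window of the table (52.4%).

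Of the genes that start and control lipolysis, the lipase itself differed little and its activator and inhibitor overlapped between the groups. Pnpla2 (ENSMUSG00000025509), which removes the first fatty acid of a triglyceride, was at 32.8, 32.8 and 32.0 FPKM in Control 2, 3 and 4 and at 34.2, 33.8 and 34.3 FPKM in SMF 1, 2 and 3. The groups did not overlap, but they were 1.05-fold apart (32.5 ± 0.44 and 34.1 ± 0.29 FPKM; log2 fold 0.07, SE 0.035, limma adjusted p = 0.3566). With the GC content and length correction its log2 fold was -0.004. Plin2, Plin3 and Pnpla2 were the 3 of 8 members whose groups did not overlap, all with SMF higher; 11.0% of all genes tested had every SMF library above every control, and 12.7% had every one below.

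The 250 bases before the start of Pnpla2 (chr7:141454938-141455187, plus strand, GRCm38.p6) are given for comparison with the perilipins. They held GGGCGG at 109 and 26 bases before the start and neither AGGTCA nor CCAAT.

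Pnpla2: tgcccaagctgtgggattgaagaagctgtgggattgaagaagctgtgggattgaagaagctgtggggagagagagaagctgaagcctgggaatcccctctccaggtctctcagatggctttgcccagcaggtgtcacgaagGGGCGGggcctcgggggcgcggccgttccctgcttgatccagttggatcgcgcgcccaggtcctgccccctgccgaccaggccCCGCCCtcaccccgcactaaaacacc

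Abhd5 (ENSMUSG00000032540), also known as CGI-58, which switches on the Pnpla2 lipase, was at 5.06, 5.40 and 5.40 FPKM in Control 2, 3 and 4 and at 5.71, 5.76 and 4.67 in SMF 1, 2 and 3. SMF 3 was the lowest and SMF 2 the highest of the 6 libraries, so the SMF group spanned the controls (log2 fold 0.02, SE 0.080, limma adjusted p = 0.9217). G0s2 (ENSMUSG00000009633), which inhibits the same lipase, was at 40.4, 45.0 and 48.1 FPKM in controls versus 47.9, 44.1 and 47.4 in SMF libraries. The lowest and the highest values were both controls (44.5 ± 3.9 and 46.5 ± 2.05 FPKM; log2 fold 0.06, SE 0.065, limma adjusted p = 0.6274). Without Control 2, the lowest library, the log2 fold of G0s2 was -0.004.

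G0s2 was also the most variable tested member among controls. Its coefficient of variation over the 3 controls was 8.76%, where counting error alone at its mean number of reads gives 3.86%; Dgat2 followed at 6.54% against 4.49%. Plin2 varied by 2.78% against 1.20%, while Plin3 (1.96% against 2.03%), Pnpla2 (1.34% against 2.43%), Abhd5 (3.75% against 4.29%), Dgat1 (2.84% against 3.11%) and Lipe (1.84% against 6.04%) varied by no more than counting error in the controls. Among the SMF libraries each tested member except Pnpla2 (0.86% against 2.40%) had a coefficient above that of counting error, from 4.35% against 1.14% for Plin2 to 11.4% against 4.30% for Abhd5. For Lipe it was 6.89% against 5.95%. A coefficient over 3 libraries is itself uncertain, so small gaps like that of Lipe cannot be told from counting error. Whether any coefficient exceeds it was not tested. Counting error here assumes independent reads, without PCR copies.

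Within a library, the inhibitor exceeded the lipase per length in all 6. In reads it did not, with 584 to 742 per library for G0s2 (871 bases) and 1604 to 1860 for Pnpla2 (3020 bases). This order therefore rests on the gene lengths used. The ratio of G0s2 to Pnpla2 was 1.23, 1.37 and 1.50 in Control 2, 3 and 4 and 1.40, 1.31 and 1.38 in SMF 1, 2 and 3. That of Pnpla2 to its activator Abhd5 was 6.16 ± 0.28 in controls versus 6.40 ± 0.82 in SMF libraries, the highest being 7.34 in SMF 3. Both ratios overlapped between the groups. The ratio of Plin2 to Pnpla2 did not, at 3.45, 3.58 and 3.48 in controls versus 4.00, 3.74 and 3.73 in SMF libraries.

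**Figure D2:**
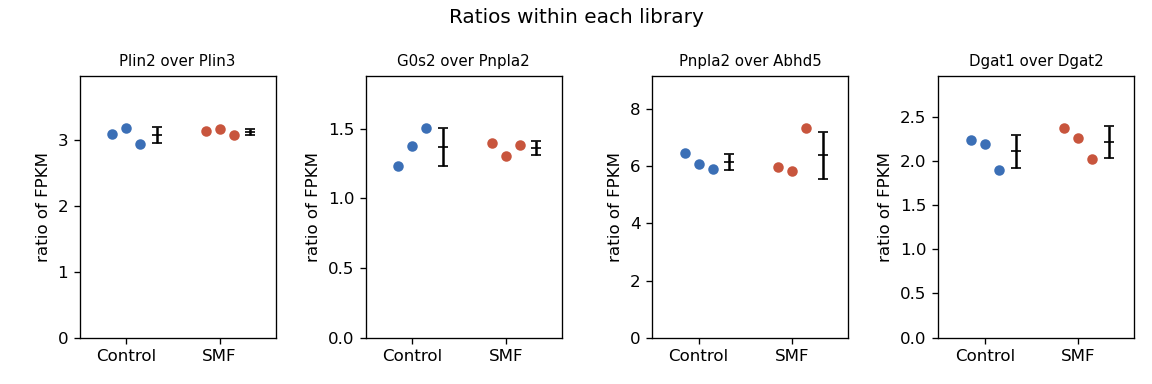
Ratio of the FPKM of a pair of genes within each library (y axis, from 0), for 3 Control (blue) and 3 SMF (red) libraries, with the mean and SD in black. The 4 ratios, Plin2 over Plin3, G0s2 over Pnpla2, Pnpla2 over Abhd5 and Dgat1 over Dgat2, overlap between the groups.

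The later lipases were scarce. Lipe (ENSMUSG00000003123), which acts mainly on diacylglycerol, was at 2.64, 2.72 and 2.73 FPKM in Control 2, 3 and 4 and at 2.85, 2.64 and 3.03 in SMF 1, 2 and 3, from 258 to 320 reads per library. SMF 2 was the lowest and SMF 3 the highest of the 6 (log2 fold 0.05, SE 0.074, limma adjusted p = 0.7295). The FPKM of Pnpla2 was 12.1 ± 0.34 times that of Lipe in controls versus 12.1 ± 0.74 times in SMF libraries. Mgll (ENSMUSG00000033174), which releases the last fatty acid, had 1 read in Control 2, 2 in Control 3 and 0 in Control 4 and in each SMF library. It is at the limit of detection in both groups, so no fold is given.

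The acyltransferases of the last step of triglyceride synthesis overlapped between the groups. Dgat1 (ENSMUSG00000022555) was at 19.8, 20.0 and 19.0 FPKM in Control 2, 3 and 4 and at 22.6, 19.8 and 20.9 in SMF 1, 2 and 3. SMF 1 was again the highest, while SMF 2 lay within the controls (19.6 ± 0.56 and 21.1 ± 1.41 FPKM; log2 fold 0.10, SE 0.054, limma adjusted p = 0.3731). Dgat2 (ENSMUSG00000030747), which is unrelated in sequence to Dgat1 and favours newly made fatty acids, was at 8.85, 9.13 and 10.02 FPKM in controls versus 9.51, 8.73 and 10.3 in SMF libraries, where SMF 2 was the lowest and SMF 3 the highest of the 6 (log2 fold 0.03, SE 0.071, limma adjusted p = 0.8718). Dgat1 exceeded Dgat2 in every library, by 2.11 ± 0.19 times in controls versus 2.22 ± 0.18 times in SMF libraries.

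As a group, the 8 tested members had a log2 fold above 0 in 8 of 8 by limma (median 0.064), where 46.7% of all genes tested were above 0 (median -0.010). Corrected for GC content and length, the median of the members was 0.028 and that of all genes -0.001. Plin2 and Plin3 kept log2 folds of 0.17 and 0.15 under that correction, while G0s2, Dgat2 and Pnpla2 went to -0.06, -0.04 and -0.004, and Abhd5 to 0.08. Rescaling to TPM put Abhd5 at -0.012 and Dgat2 at -0.006, and left the other 6 members above 0. In bulk RNA, more transcript per cell and more cells that carry it cannot be told apart.

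**Figure D3:**
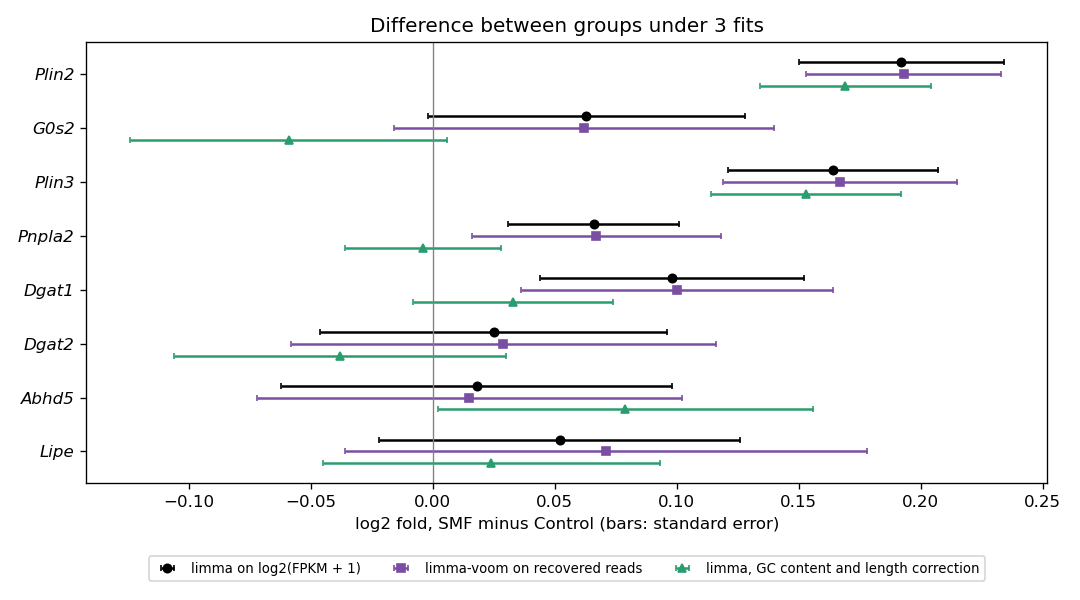
Log2 fold, SMF minus Control (x axis), of the 8 tested members under limma on log2(FPKM + 1) (circles), limma-voom on recovered reads (squares, log2 of reads) and limma with the GC content and length correction (triangles), with bars of 1 standard error. Plin2 and Plin3 stay at 0.15 to 0.19 under the 3 fits, and Pnpla2, G0s2 and Dgat2 lie at or below 0 after the correction.

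Over the 6 libraries, the log2(FPKM + 1) of Pnpla2 and Plin3 followed that of Plin2 most closely among the members (Pearson r of 0.939 and 0.938), then Dgat1 (0.876), Lipe (0.528), G0s2 (0.411), Abhd5 (0.220) and Dgat2 (0.116). Across 9983 named genes, 483 (4.8%) reached an r of at least 0.9 with Plin2, and Pnpla2 and Plin3 were numbers 229 and 234 in that order. The 5 most like it were Oaf (r = 0.9956), Ppp1r16a (0.9950), Cyc1 (0.9935), Use1 (0.9935) and Polr3c (0.9919). The 3 most opposed were Alg10b (-0.9977), Cdkn1b (-0.9971) and Rbbp4 (-0.9960). Cyc1, cytochrome c1 of the respiratory chain, was at 111.4, 116.5 and 109.2 FPKM in Control 2, 3 and 4 and at 131.0, 124.1 and 123.6 in SMF 1, 2 and 3, close to Plin2 in level as well. Cdkn1b, the cell cycle inhibitor p27, was at 20.1, 19.5 and 20.2 in controls versus 16.9, 18.3 and 18.2 in SMF libraries. All 8 of these genes had groups that did not overlap, and the 6 libraries that give r are those that carry the difference between the groups.

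The other genes of the pathway were taken as 7 lists with 147 distinct symbols (some of them older names of a listed gene), of which 100 were tested. By limma 0 of the 100 passed, and 18 had an unadjusted p under 0.05, against 18.0% of all genes tested. By limma-voom 3 of the 100 passed, against 4.59% of all genes, and these 3 were named after their values were seen. Sqstm1, an autophagy receptor, was at 183.6, 176.2 and 177.4 FPKM in Control 2, 3 and 4 and at 199.0, 199.8 and 199.4 in SMF 1, 2 and 3 (limma-voom adjusted p = 0.01631). Acot1, a cytosolic acyl-CoA thioesterase, was at 17.3, 19.2 and 18.5 in controls versus 21.2, 20.7 and 21.4 in SMF libraries (0.04681); near-identical copies make its level uncertain. Rab18, a GTPase of the droplet surface, was lower, at 17.2, 16.4 and 17.9 in controls versus 14.4, 15.5 and 15.4 in SMF libraries (0.04865; its limma log2 fold went from -0.17 to -0.07 with the GC content and length correction). Each of these 3 limma-voom calls was lost without Control 4, without SMF 1 and without SMF 3, and those of Acot1 and Rab18 also without Control 2. The highest adjusted p was 0.1377 for Sqstm1, 0.1977 for Acot1 and 0.2607 for Rab18. With that correction limma-voom still called Acot1 (adjusted p = 0.03504), while Sqstm1 (0.1095) and Rab18 (0.6298) did not.

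Among droplet biogenesis and coat genes, 8 of 19 tested had a log2 fold above 0 (median -0.002) and 0 passed limma. The most abundant were Aup1, a droplet protein of the ubiquitin pathway, at 62.1 ± 1.05 FPKM in controls versus 67.4 ± 1.9 in SMF libraries, and Acsl3, the acyl-CoA synthetase of growing droplets, at 64.0 ± 1.83 and 61.5 ± 1.43. Cideb, the hepatocyte member of a family that enlarges droplets, had the largest log2 fold of this list. Its values were 6.92, 7.05 and 5.84 FPKM in Control 2, 3 and 4 and 8.36, 8.21 and 8.94 in SMF 1, 2 and 3, with no overlap (log2 fold 0.32, SE 0.074, limma adjusted p = 0.1578). Hilpda, a small inhibitor of Pnpla2 induced by hypoxia and fatty acids, was at 25.6, 24.96 and 27.9 in controls versus 27.9, 28.1 and 30.7 in SMF libraries (limma adjusted p = 0.2497). Its groups were just apart. Of the perilipins that are not members, Plin4 stood at 0.08 to 0.19 FPKM and was not tested. Cideb, Hilpda and Plin4 were named after their values were seen.

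Of the glycerolipid synthesis genes upstream of Dgat1 and Dgat2, 8 of 18 had a log2 fold above 0 (median -0.021) and 0 passed. Acsl5, an acyl-CoA synthetase, was the most abundant at 183 ± 3.32 FPKM in controls versus 178.6 ± 4.75 in SMF libraries, followed by Plpp2, a lipid phosphate phosphatase, at 115.8 ± 3.16 and 122.5 ± 6.43. In this list 6 of the 18 tested genes had every SMF library below every control, against 12.7% of all genes, and 1, Agpat1, had every SMF library above, against 11.0%. Lpin1, which makes the diacylglycerol that Dgat1 and Dgat2 use, was among the 6, at 3.11, 3.07 and 2.73 FPKM in controls versus 2.50, 2.44 and 2.51 in SMF libraries (limma adjusted p = 0.2498). The largest limma log2 fold of the 6 was that of Plpp1, at -0.418 and -0.473 with the GC content and length correction. With that correction Tmem68 went from -0.256 to -0.166, Lpin1 from -0.187 to -0.144 and Gk from -0.165 to -0.060. Lpin2 went from -0.074 to -0.014, Agpat5 from -0.098 to 0.003 and Agpat1 from 0.134 to 0.049. Agpat1, Agpat5, Gk, Lpin1, Lpin2, Plpp1 and Tmem68 were named after their values were seen. Other lipases and hydrolases had 5 of 12 above 0 (median -0.025), with Abhd12, a monoacylglycerol and lysophospholipid hydrolase, at 63.4 ± 1.53 and 66.1 ± 2.32 and the lysosomal lipase Lipa at 22.4 ± 0.52 and 21.7 ± 0.28.

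Fatty acid uptake and binding genes had 4 of 10 above 0 (median -0.026), with Dbi, the acyl-CoA binding protein, at 80.3 ± 4.75 and 87.2 ± 2.13 FPKM and Cav1, caveolin 1, at 65.6 ± 3.11 and 60.4 ± 4.52. The fatty acid receptor Cd36 was at 0 to 0.031 FPKM. Triglyceride export and sterol ester genes had 3 of 8 above 0 (median -0.030); P4hb, a subunit of the triglyceride transfer protein, was at 409.3 ± 11.1 and 404.5 ± 2.86, and Surf4, a cargo receptor for lipoproteins, at 86.8 ± 3.1 and 87.6 ± 0.59. PPAR receptors and targets had 9 of 18 above 0 (median 0.004), the most abundant being the acyl-CoA dehydrogenases Acadl at 66.4 ± 1.31 and 64.8 ± 3.69 and Acadvl at 52.6 ± 2.05 and 55.6 ± 1.86. The receptors Ppara (0.11 to 0.18 FPKM) and Pparg (0 to 0.11) and the target Pdk4 (0 to 0.033) were below the filter, while Ppard stood at 5.53 ± 0.37 and 5.43 ± 0.36. Angptl4, a PPAR target like Plin2, was at 12.8 ± 0.76 and 12.4 ± 0.36. Of the 18 tested genes in this list, 0 passed limma and 2 had an unadjusted p under 0.05, against 18.0% of all genes tested. Acot1, given above, was the list's 1 tested gene with every SMF library above every control (11.0% of all genes). Vnn1 was its 1 gene with every SMF library below (12.7% of all genes). It was at 6.63, 7.03 and 5.54 FPKM in controls versus 4.54, 5.17 and 5.25 in SMF libraries (log2 fold -0.30, limma adjusted p = 0.1764). Cd36, Ppara, Pparg, Ppard, Pdk4, Angptl4 and Vnn1 were named after their values were seen. Lipogenic transcription factors and lipophagy genes had 11 of 15 above 0 (median 0.043), with Hspa8, a chaperone that takes perilipins to lysosomes, at 200.2 ± 7.55 and 205.9 ± 5.16, and Sqstm1 as given above. In this list 2 genes, Sqstm1 and Map1lc3b, had every SMF library above every control (11.0% of all genes). Another 2, Atg5 and Rab7, had every SMF library below (12.7% of all genes). Atg5 was at 18.46 ± 0.44 and 16.13 ± 0.24 FPKM (limma adjusted p = 0.1502). Map1lc3b, Atg5 and Rab7 were named after their values were seen.

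**Figure D4:**
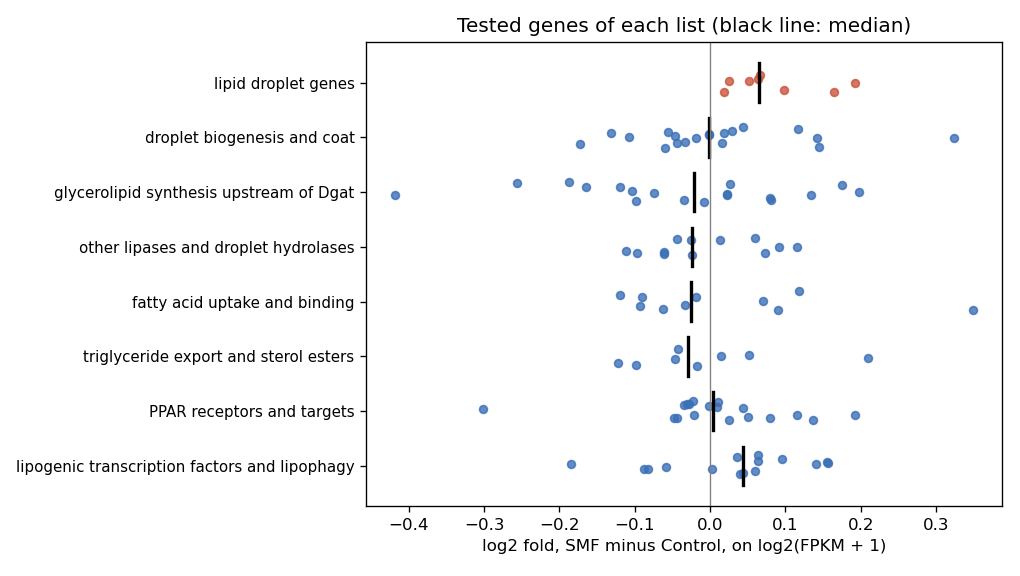
Log2 fold, SMF minus Control, on log2(FPKM + 1) (x axis) of each tested gene (points) in the 8 tested lipid droplet members (red) and in 7 lists of related genes (blue), with the median as a black line. The points of the members all lie above 0, and each of the other lists has points on both sides of 0.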

How the data were processed

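The authors deposited FPKM, 1 file per library; the unit is taken from the file names and values. Per the submitters' processing notes the build was GRCm39 and the tools Bowtie2 2.2.3 and HISAT2 2.1.0, whose roles are not stated; the counter, annotation release, strand setting and handling of multiply mapped reads are likewise not stated there. Symbols, exon lengths and GC content came from GENCODE M21 (GRCm38), which named 23521 of 23886 identifiers; promoter sequences came from RefSeq on GRCm38.p6. Reads were recovered by multiplying the deposited FPKM by M21 exon length and by the library total that makes low values whole; 96.94% of 22004 genes above 0 came out whole within 0.02 reads in every library, and for 298 of the 11114 tested genes the length was searched for instead.

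limma 3.58.1 (R 4.3.3) was fitted to log2(FPKM + 1) with a variance trend, two-sided, with Benjamini-Hochberg adjustment over the 11114 genes with at least 1 FPKM in at least 3 libraries. This scale understates the change of low genes. limma-voom, run on reads recovered for those genes, was an alternative. Members and lists were chosen with earlier results of these data known. The rule for named genes took the 10 members, from each of the 7 lists any gene past the limma threshold (there was none) and the 2 most abundant, and the 5 genes most and 3 least like Plin2 by Pearson r. Outside this rule the text names markers of cell types and the genes marked there as named after their values were seen. Groups came from the sample titles, and libraries of a group differed by more than sampling noise. Alternatives were other pseudocounts, filters and scalings, a replicate block, a GC content and length correction (loess) and leaving out each library. Figures were drawn with matplotlib 3.10.9.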

Additional observations from a re-analysis of the deposited data

How the results depend on the processing

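The count of genes past the threshold, 0 by limma as reported (1998 at an unadjusted p under 0.05), was 8 with a filter at 5 FPKM (6 higher, 2 lower), 510 by limma-voom (242 higher, 268 lower) and, by limma with a library left out, 0 to 3 (0 to 2 higher, 0 to 1 lower). With the replicate block it was 19 (13 higher, 6 lower). The titles share only the numbers 2 and 3 between the groups, and deviations of same-numbered libraries correlated at 0.058 and 0.046, so the number is not taken as a pairing; the block put the log2 fold of Plin2 at 0.141 and of Plin3 at 0.147 and passed no member.

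By limma-voom 2 members and 3 genes of the related lists passed, against 0 of each by limma. With limma-voom and the GC content and length correction, an alternative added after seeing the data, 1 member and 100 genes in all passed. With limma-voom and a library left out, also added, 0 to 2 members passed, while the count over all genes ran from 8 without Control 4 to 1465 without SMF 2; the cause was not tested. Over 17 alternatives the log2 fold of Plin2 ran from 0.130 to 0.215 and that of Plin3 from 0.132 to 0.194.

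Of the 6 tested members called by neither test, 4 crossed 0. Pnpla2 was at -0.004 with the GC content and length correction. G0s2 was at -0.059 with that correction and ran from -0.004 to 0.120 with a library left out. Dgat2 was at -0.038 with the correction and -0.006 under TPM, and ran from -0.029 to 0.081 with a library left out. Abhd5 was at -0.012 under TPM and -0.007 with the replicate block, and ran from -0.026 to 0.101 with a library left out. Dgat1 and Lipe stayed above 0 in each alternative run for them, at 0.028 to 0.141 and 0.017 to 0.090; Lipe was not tested with the filter at 5 FPKM. The number of reads limits the values of Lipe and, above all, Mgll.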
